A study of Mus musculus with 6 samples.

Results

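The TRIM family (tripartite motif proteins) was read across 6 arrays of mouse monocytes. Members were all genes whose single annotated symbol is Trim followed by a number, which gave 64 of the 22180 genes in the deposited table. Of these, 59 were bright enough to test, among 18458 tested genes. The other 5 (Trim30e-ps1, Trim31, Trim38, Trim69 and Trim75) lay above the 25th percentile of their array on fewer than 3 arrays. The rule used symbols and levels and not the difference between the groups. It was chosen with earlier results of these data known. All mice had received Th9 cells, a helper T cell subset, and tissue was taken 10 days later. Cells were flow-sorted as CD11b-positive, CD11c-negative, Ly6C-high inflammatory monocytes, and total RNA was hybridised to Mouse Gene 2.0 ST arrays, which give 1 value per probe set. The 2 groups are spleen (n = 3 arrays) and tumor (n = 3 arrays), and there was no group without Th9 cells. The strain field of the labels reads only Th9 for every sample, and the kind of tumor and the mouse strain are not stated in the material used.

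TRIM proteins share a RING finger, B-boxes and a coiled coil, and most are E3 ubiquitin ligases, enzymes that attach ubiquitin to chosen substrates. A variable C-terminal end sets their role: many with a PRY-SPRY domain act in antiviral defence, those with a PHD finger and bromodomain work on chromatin, and others serve muscle, germ cells or the cytoskeleton. In myeloid cells a subset is known to be induced by interferon and to tune the sensing of foreign nucleic acids.

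Levels are log2(intensity + 1), differences are tumor minus spleen on that scale, and calls were made by limma where the Benjamini-Hochberg p, adjusted over all tested genes, was under 0.05. Array medians lay between 4.50 and 4.76, with both arrays numbered 3 above the others, and the arrays numbered 3 deviated together from the rest of their groups. Whether all 6 arrays were normalized together is not stated, and the part of this in the differences was not tested beyond the alternative scalings and the replicate block. The labels do not state whether each array held RNA of another mouse, so the p-values rest on a spread that may be technical. With 3 arrays a group, the smallest p of an exact permutation test is 0.1. Among the genes behind the sort, Itgam (CD11b) had a level of 10.04 ± 0.15 (SD, n = 3) in spleen and 9.19 ± 0.22 in tumor, and Ly6c2 6.81 ± 0.58 and 8.29 ± 0.40. Itgax, which encodes the CD11c that was selected against, had 11.16 ± 0.12 and 10.31 ± 0.17. The Itgax level was thus above that of Itgam in both groups, though intensities of different probe sets do not rank amounts of RNA. A flow sort reads protein and not RNA. With these limits, the RNA levels do not bear out the CD11c-negative sort, and the purity of the sort was not tested. Of 10 genes of the sorted cell type and the sort, 2 were called higher (Ly6c2 and Fcgr1) and 4 lower (Itgam, Itgax, Ccr2 and Csf1r). The shares among all tested genes were 5.73% higher and 4.85% lower. With an array left out, Csf1r lost its limma call in 5 of 6 fits (adjusted p up to 0.173). Itgam lost it in 3 fits, Ly6c2 in 2 and Itgax in 1, while Fcgr1 and Ccr2 kept theirs. Fcgr1, an Fc receptor, went from 7.85 ± 0.12 to 11.41 ± 0.18, Ccr2, the chemokine receptor of inflammatory monocytes, from 6.86 ± 0.09 to 5.93 ± 0.15, and Csf1r, the receptor of a macrophage growth factor, from 11.39 ± 0.13 to 10.82 ± 0.10. Of the marker lists of other cell types, those of B, NK, erythroid, melanocyte, epithelial, fibroblast and neutrophil cells had 0 called members by limma; before adjustment (p under 0.05) the fibroblast list had 1 higher and 1 lower, and the others 0. Called higher in tumor were 2 of 4 tested plasmacytoid dendritic cell genes (Bst2 by 1.38 and Tcf4 by 1.92). So were 2 of 5 conventional dendritic cell genes (Ccr7 by 0.54 and Zbtb46 by 0.89). The same held for 2 of 7 macrophage genes (Vcam1 by 1.90 and Siglec1 by 0.93) and 1 of 4 endothelial genes (Kdr by 2.88). Such a rise was called for 5.73% of all tested genes. Ccr7 was bright in both groups, at 11.56 ± 0.09 in spleen and 12.11 ± 0.03 in tumor. Summed intensity of the plasmacytoid list ran from 873.2 to 1351 on the spleen arrays and from 2629 to 3226 on the tumor arrays, and that of the conventional dendritic cell list from 3630 to 4160 and from 5128 to 5362. It ran from 2658 to 3819 and from 3610 to 5055 for the macrophage list, and from 180.6 to 225.6 and from 434.9 to 631.7 for the endothelial list. Such sums weigh bright genes most. Bst2 stood at 9.61 ± 0.37 in spleen and 10.99 ± 0.07 in tumor, and Kdr at 5.67 ± 0.30 and 8.54 ± 0.37. Examples of genes on these lists that were not called are Siglech (4.52 ± 0.45 in spleen and 4.62 ± 0.57 in tumor), Ccr9 (3.98 ± 0.09 and 4.05 ± 0.13), Xcr1 (4.59 ± 0.28 and 4.30 ± 0.06) and Cdh5 (5.36 ± 0.17 and 5.29 ± 0.20). Klk1 and Emcn lay under the 25th percentile on all 6 arrays and were not tested. The T cell list had 0 of 5 higher and 1 lower (Cd3g, by 1.36). Cd3d (0.00), Cd3e (0.06), Cd4 (-0.36) and Cd8a (-0.25) were not called. The summed intensity of the T cell list ran from 222.6 to 260.1 in spleen and from 128.3 to 176 in tumor. The part of these cell types in the TRIM differences was not tested. In bulk RNA, fewer cells of a type and less RNA per cell cannot be told apart.

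A block of TRIM genes rose on the tumor arrays, while most members did not pass the test. Of 59 tested members, 13 were called higher in tumor (22%) and 3 lower (5.08%), against 5.73% higher and 4.85% lower among all 18458 tested genes. At least 2-fold calls numbered 11 higher and 1 lower, where 3.74% and 1.59% of all tested genes did so. The median difference was -0.03 over the tested members and -0.05 over all tested genes. In all 16 called members the groups did not overlap. With 3 arrays a group a call makes such separation likely, so it adds no support of its own. Over the tested members, all tumor arrays lay above all spleen arrays in 14 (9.81% of all tested genes) and below them in 9 (15.5%). With the replicate number as a block, 16 members were higher and 12 lower, where 11.7% and 17.3% of all genes were called, so the count of falls depends on the fit. The split was 14 higher and 8 lower after quantile normalization, where 8.59% and 10.4% of all tested genes were called, and 14 and 6 after median centring of the arrays, where 8.03% and 9.78% were.

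**Figure D1:**
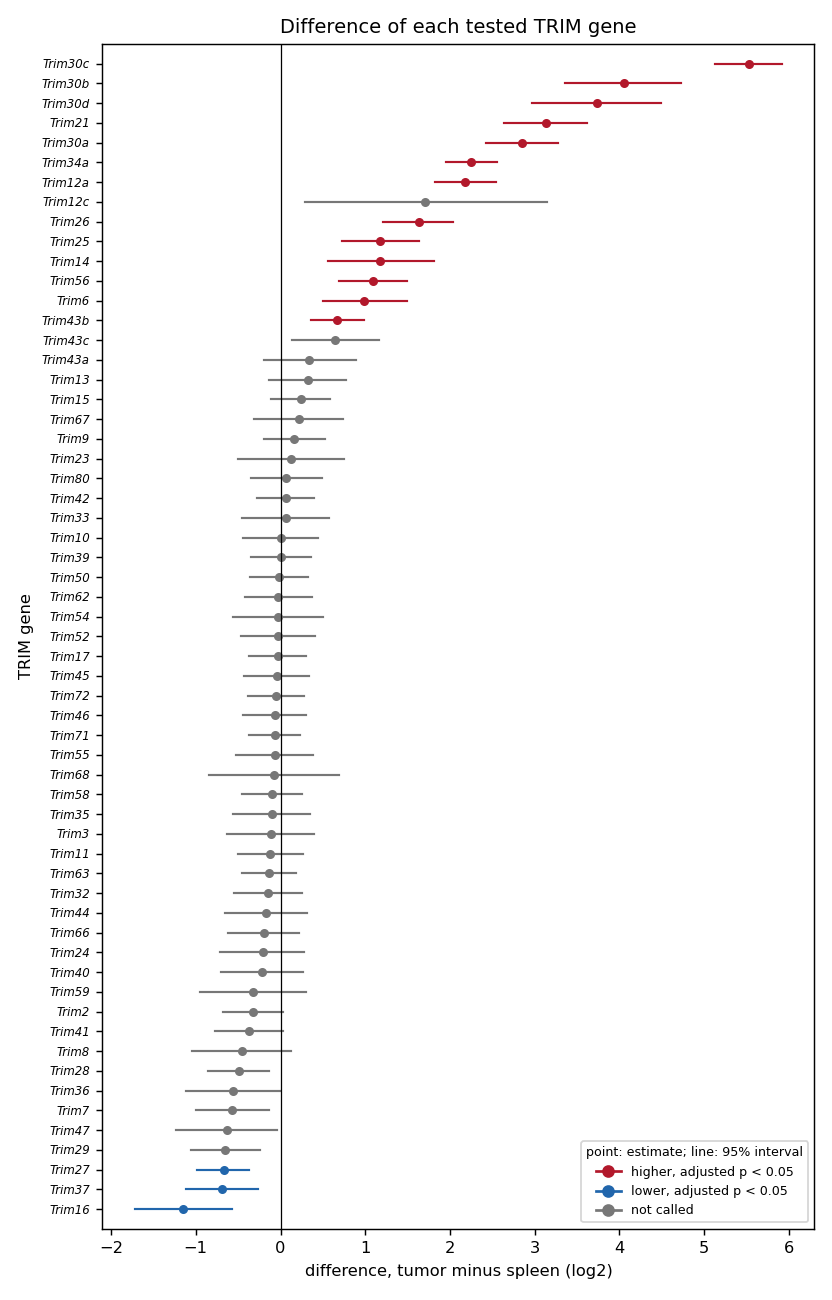
Difference, tumor minus spleen on the log2 scale, of each of the 59 tested TRIM genes, with the 95% interval of the limma fit, coloured by call. The 13 called rises reach from 0.67 (Trim43b) to 5.53 (Trim30c), the 3 called falls from -0.67 (Trim27) to -1.15 (Trim16), and most other intervals cover 0.

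Of the 13 rises, 7 lie in a cluster of Trim6, Trim34, Trim5, Trim12 and Trim30 genes on chromosome 7. Stretches of their RefSeq start regions (assembly GRCm38.p6, 250 bases before to 50 after a start) are shown here because several hold the core of the interferon-stimulated response element, ISRE. The core searched was GAAA, any 2 bases, then GAAA, on either strand. Capitals mark the match, overlapping matches are joined, and each sequence is printed 5′ to 3′ on the strand of its gene. Where the match lies after the start, 30 bases are given.
Trim30a, chr7:104465195-104465254, minus strand: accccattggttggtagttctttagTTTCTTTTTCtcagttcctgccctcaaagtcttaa
Trim30d, chr7:104507856-104507915, minus strand: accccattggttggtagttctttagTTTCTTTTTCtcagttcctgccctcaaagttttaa
Trim30a, other start, chr7:104446114-104446143, minus strand: cactggttggttgtttttagTTTCTTTTTC
Trim12a, chr7:104315476-104315505, minus strand: attggtctgtagagttgtggTTTCTGTTTC
Trim12c, chr7:104353350-104353403, minus strand: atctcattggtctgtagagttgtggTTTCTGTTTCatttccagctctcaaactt
Trim34a, chr7:104244447-104244476, plus strand: ctgtatccgctggtttggagTTTCAGTTTC
Trim21, chr7:102565454-102565483, minus strand: cctgcctctgagagGAAACTGAAAGTGAAA
Trim26, chr17:36836961-36837026, plus strand: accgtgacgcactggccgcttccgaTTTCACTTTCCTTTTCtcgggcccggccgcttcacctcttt

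The Trim30a and Trim30d stretches differ at 1 of 60 bases, and the Trim12a stretch has 0 mismatches over its 30 bases with Trim12c. The match begins 36 bases before the start in Trim30a, 41 in Trim30d, 29 in Trim12c and 160 in Trim26. It begins 11 bases into the transcript in both Trim12a and Trim34a, 14 in Trim21 and 3 at the other start of Trim30a. Trim21 and Trim26 each hold 2 overlapping matches. Start regions were found for 49 of the 64 members. The core was present in 6 of 11 called rises with a start region, in 0 of 2 called falls and in 2 of 32 members not called (Trim12c and Trim2). It was present in 1079 of 27025 genes with a start region (3.99%), and in 3.44% of all windows. Trim30b, Trim30c, Trim6, Trim25 and Trim56 rose, and their windows do not hold these letters. The GAS element TTCNNNGAA, which reads the same on both strands, was present in 1 of the 11 (Trim30c), in 3 of the 32 not called and in 9.55% of all genes. A match describes the letters and is not a measured binding site.

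Trim30c, Trim30b and Trim30d had the largest differences among the tested members, and Trim30a came after Trim21. They belong to a rodent branch of the family, and Trim30a is known to restrain NF-kB signalling through the adaptors Tab2 and Tab3. Trim30c had levels of 4.08, 4.56 and 4.55 on the spleen arrays numbered 1 to 3 and of 10.02, 9.86 and 9.89 on the tumor arrays. Trim30b had 3.63, 4.01 and 4.73 in spleen and 7.97, 7.93 and 8.61 in tumor. Trim30d had 6.19, 6.43 and 7.29 in spleen and 10.23, 9.94 and 10.92 in tumor. In these 3 genes every tumor array lay above every spleen array. Trim30a had 5.17, 4.87 and 5.31 in spleen and 7.72, 7.94 and 8.23 in tumor, again without overlap. The differences were 5.53 ± 0.17 (SE) for Trim30c (46.1-fold, limma adjusted p = 1.9e-06), 4.05 ± 0.30 for Trim30b (16.5-fold, adjusted p = 7.1e-05), 3.73 ± 0.33 for Trim30d (13.3-fold, adjusted p = 2.1e-04) and 2.85 ± 0.19 for Trim30a (7.21-fold, adjusted p = 3.7e-05). In spleen the means of Trim30c (4.40) and Trim30b (4.12) were below 4.42, the lower quartile of mean levels among tested genes, so background limits the size of their folds. With a pseudocount of 16 they were 27.3-fold for Trim30c and 9.24-fold for Trim30b. The pseudogene Trim30e-ps1 was not above the 25th percentile on any array and was not tested. Trim30, Trim12 and Trim34 genes have close copies, and a probe set of one can read transcripts of another, so which copy gave each signal is uncertain.

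The rest of the cluster rose less. Trim34a, a PRY-SPRY protein related to the retroviral restriction factor TRIM5, had 6.64, 6.68 and 6.66 in spleen and 8.85, 8.93 and 8.96 in tumor. Trim12a, a mouse relative of TRIM5, had 7.11, 7.22 and 7.46 in spleen and 9.41, 9.34 and 9.58 in tumor. Both were separated by group on all arrays, with differences of 2.25 ± 0.13 (adjusted p = 2.0e-05) and 2.18 ± 0.16 (adjusted p = 5.9e-05). The dimmer second probe set of Trim34a stood at 3.29 ± 0.07 in spleen and 4.12 ± 0.49 in tumor, a difference of 0.83, and with the mean of both probe sets the rise of Trim34a was 1.54. Trim12c, the other relative of TRIM5, had 3.22, 3.10 and 4.32 in spleen and 4.87, 4.13 and 6.78 in tumor. Its lowest tumor value lay below its highest spleen value, and its difference of 1.71 ± 0.62 was not called (adjusted p = 0.141), but was with the replicate block (adjusted p = 0.00144). Trim12c was above the 25th percentile on 4 arrays, of which 3 were tumor arrays, so its place among the tested genes rests on the group where it is high. Trim6, a PRY-SPRY ligase that builds ubiquitin chains for the kinase IKK-epsilon, had 4.48, 4.34 and 4.75 in spleen and 5.38, 5.23 and 5.94 in tumor. Its groups were separate, with a difference of 0.99 ± 0.22 (adjusted p = 0.0216). The call of Trim6 was lost without spleen 1, spleen 2 or tumor 1 (adjusted p up to 0.0949).

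In RefSeq order the 8 tested TRIM genes from Trim6 to Trim30d had differences between 0.99 and 5.53, and 7 of them were called. The 5 tested genes before Trim6 (Olfr642, Olfr646, Ubqln5, Ubqlnl and Olfm5) lay between -0.32 and 0.17, and the 5 after Trim30d, all olfactory receptor genes, between -0.05 and 0.08. By limma, 0 of these 10 were called, and 0 had an unadjusted p under 0.05. Of these 10 flanking genes 8 were dim in both groups, with means below 4.42, so they say little about how far a rise extends. The predicted gene Gm15133, inside the cluster, rose by 1.95 (adjusted p = 1.1e-04; 1.19 with a pseudocount of 16) and was named after its value was seen. Trim5 and Trim34b have no probe set of their own in the annotation and were not analysed here. Outside the cluster 6 of 51 tested members were called higher (11.8%, beside 5.73% of all tested genes). On chromosome 17 the TRIM genes near Trim26 were not called: Trim39, Trim15, Trim10 and Trim40 lay at 0.00, 0.24, 0.00 and -0.22. By limma, 0 of the 9 tested flanking genes that are not TRIM genes were called there, and 0 had an unadjusted p under 0.05. Trim15, Trim10 and Trim40 were dim, with means below 4.42 in both groups, as were 3 of these 9 flanking genes. Such dim genes say little about how far a rise extends.

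**Figure D2:**
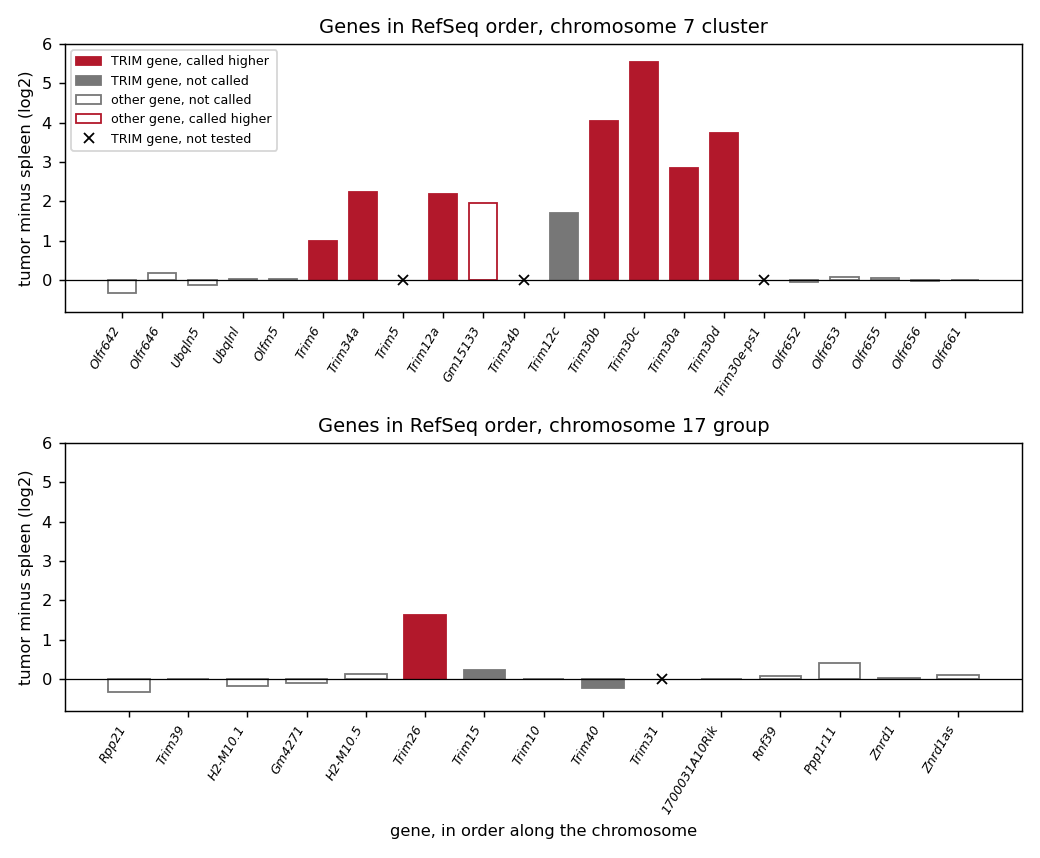
Difference, tumor minus spleen on the log2 scale, for genes in their order along the chromosome, with TRIM genes filled, other genes open, and TRIM genes that were not tested as crosses. In the upper panel 7 of 8 tested TRIM genes of the chromosome 7 cluster were called higher, while the 5 tested genes on either side, most of them dim, lie near 0. In the lower panel Trim26 (1.63) is the only called gene, and several of the others are dim.

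Outside the cluster, Trim21, Trim26, Trim25, Trim56 and Trim14 also rose. Trim21, the cytosolic antibody receptor that targets antibody-coated virus to the proteasome, had 6.93, 7.22 and 7.56 in spleen and 10.30, 10.12 and 10.67 in tumor. The difference was 3.13 ± 0.21 (8.75-fold, adjusted p = 4.3e-05), and the groups did not overlap. Trim26, known as a regulator of interferon-beta production, had 7.21, 7.39 and 7.64 in spleen and 8.98, 8.85 and 9.30 in tumor. Trim25, the ligase that activates the RNA sensor RIG-I, had 9.33, 9.38 and 9.88 in spleen and 10.55, 10.62 and 10.96 in tumor. Trim56, which modifies components of the cGAS and STING pathway, had 7.13, 7.11 and 6.96 in spleen and 8.02, 7.98 and 8.47 in tumor. All 3 genes were higher on every tumor array than on any spleen array, with differences of 1.63 ± 0.18 (Trim26, adjusted p = 7.8e-04), 1.18 ± 0.20 (Trim25, adjusted p = 0.00679) and 1.09 ± 0.17 (Trim56, adjusted p = 0.0053). The rise of Trim56 was 1.51 in the arrays numbered 3 and 0.88 in those numbered 1 and 2. Trim14, an adaptor of mitochondrial and DNA-sensing signalling that lacks a RING finger, had 7.30, 7.43 and 8.08 in spleen and 8.57, 8.51 and 9.28 in tumor. Its difference was 1.18 ± 0.27 (adjusted p = 0.0278), and the call was lost without spleen 1, spleen 2, tumor 1 or tumor 3 (adjusted p up to 0.103). Of the 10 tested members of a list known as interferon-induced or antiviral, 9 were higher and 0 lower, and before adjustment limma also gave 0 lower; the exception was Trim12c. Over all tested genes 5.73% were higher and 4.85% lower. The antiviral list was chosen with earlier results of these data known, so its count is a description.

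**Figure D3:**
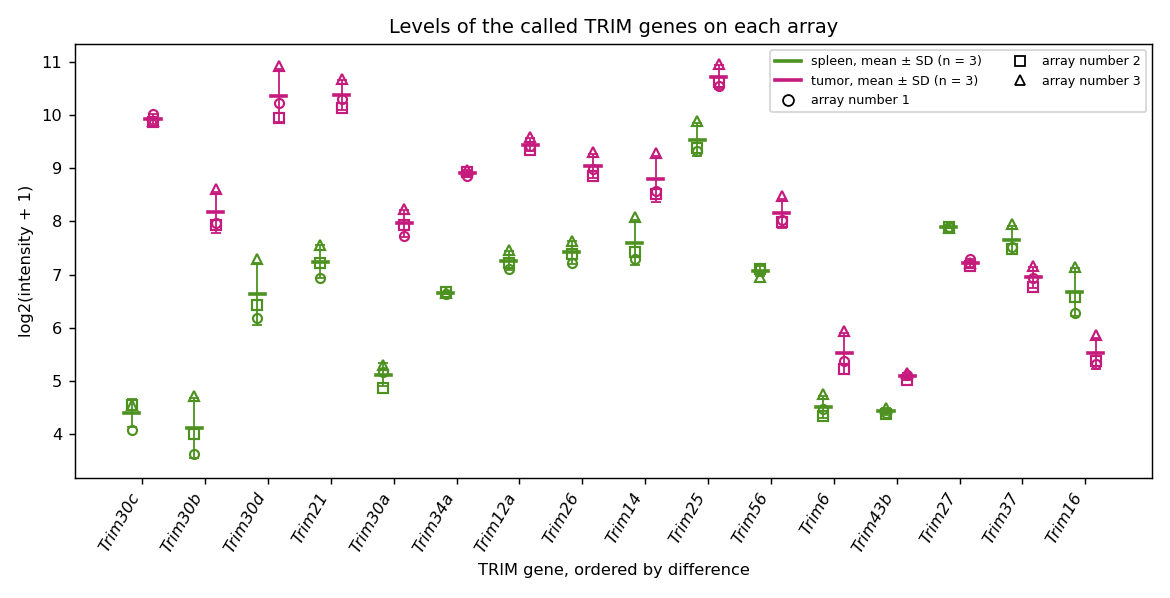
Level, log2(intensity + 1), of the 16 called TRIM genes on each array, with spleen in green, tumor in magenta, a symbol for each array number, and bars for mean ± SD (n = 3). In every gene shown the groups are separate, and triangles (number 3) are the highest of their group in 12 genes for spleen and in 14 for tumor.

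Trim43b belongs to a family of embryonic TRIM genes that lie close together on chromosome 9. Its level was low in both groups, at 4.43 ± 0.06 in spleen and 5.09 ± 0.07 in tumor, a difference of 0.67 ± 0.14 (adjusted p = 0.016). Without spleen 1, spleen 2 or tumor 1 the call of Trim43b was lost (adjusted p up to 0.0942). The copies Trim43c (0.64) and Trim43a (0.34) were not called, although both were with the replicate block (adjusted p = 0.00436 and 0.0405). The Trim43 genes are close copies, so their signals may mix.

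Falls were few, small and less stable, and their share (5.08%) was near the 4.85% of all tested genes. Trim16, a RING-less member that takes part in clearing damaged lysosomes, had 6.27, 6.58 and 7.15 in spleen and 5.33, 5.38 and 5.86 in tumor. Its groups were separate, and it fell by 1.15 ± 0.25 (2.21-fold, adjusted p = 0.0222). Trim37, whose loss causes a human growth disorder, had 7.51, 7.49 and 7.95 in spleen and 6.93, 6.77 and 7.16 in tumor, and fell by 0.69 ± 0.18 (adjusted p = 0.0486). Trim27, a PRY-SPRY protein first found as a fusion partner of the RET kinase, had 7.90, 7.90 and 7.88 in spleen and 7.29, 7.16 and 7.21 in tumor, and fell by 0.67 ± 0.13 (adjusted p = 0.0146). The call was lost for Trim16 without spleen 2, tumor 1 or tumor 2 (adjusted p up to 0.107), for Trim27 without spleen 1, spleen 2, tumor 1 or tumor 2 (up to 0.0833), and for Trim37 without any one array but tumor 3 (up to 0.17). The second, dimmer probe set of Trim27 stood at -0.09, and with the mean of both the call of Trim27 was lost (adjusted p = 0.233). Without spleen 2, tumor 1 or tumor 2 the count of falls was 0 by limma, with 6, 5 and 5 lower at an unadjusted p under 0.05; it was 1 without spleen 1 and 6 without tumor 3.

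The members not called numbered 43, with differences from -0.65 to 1.71. Of these, 37 lay within 0.5 of 0, and for 37 the 95% interval stayed inside a 2-fold change in either direction. But 15 of the 43 were dim, with a mean over both groups below 4.42, and a small difference says little about a dim gene. Chromatin members, which carry a PHD finger and bromodomain, had 0 of 4 called by limma and 1 lower at an unadjusted p under 0.05. Trim28, the corepressor that silences endogenous retroviruses through KRAB zinc finger proteins, had 8.17, 8.20 and 8.44 in spleen and 7.61, 7.83 and 7.89 in tumor. Its groups were separate, but the difference of -0.49 ± 0.15 missed the threshold (adjusted p = 0.0906), which it passed with the replicate block (adjusted p = 0.00681). Trim24, a coactivator of nuclear receptors, stood at -0.21 ± 0.22 (adjusted p = 0.726), and Trim33 and Trim66 had intervals that cover 0. Trim8, an activator of cytokine signalling, stood at -0.46 ± 0.26 (adjusted p = 0.377; the replicate block gave an adjusted p = 0.00918). Trim29 (-0.65 ± 0.18, adjusted p = 0.054), known to restrain interferon production in macrophages, and Trim7 (-0.57 ± 0.19, adjusted p = 0.105), first found as a partner of glycogenin, also lay lower without a call. Both were called with the replicate block (adjusted p = 0.00308 and 0.00358). After quantile normalization Trim8, Trim28, Trim29 and Trim7 were called lower too, with adjusted p = 0.0484, 0.0223, 0.0194 and 0.0123. With the replicate block Trim2, Trim36, Trim41, Trim47 and Trim59 were also called lower.

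Domain lists were made from the known domains of each subfamily and were not checked against each protein. On the list of members with a RING and a PRY-SPRY domain, 11 of 29 tested genes were higher and 1 lower. Those shares are 37.9% and 3.45%, beside 5.73% and 4.85% of all tested genes. Of these 11 rises, 7 lie in the chromosome 7 cluster, whose close copies may share signal. The count for this list therefore mostly repeats that of the cluster. The rises not on this list were Trim56, which has no known C-terminal domain, and Trim14. Trim14 is listed with the RING-less members but carries a PRY-SPRY domain, as Trim16 does. By limma, 0 of 4 members with NHL repeats, 0 of 3 muscle members with a COS box (Trim54, Trim55 and Trim63) and 0 of 4 members with COS, fibronectin and SPRY domains were called; at an unadjusted p under 0.05 the last class had 1 lower (Trim36) and the others 0. The medians were 0.24 for the RING and PRY-SPRY list, -0.21 for the chromatin members and -0.13 for NHL repeats. The difference between the lists was not tested.

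**Figure D4:**
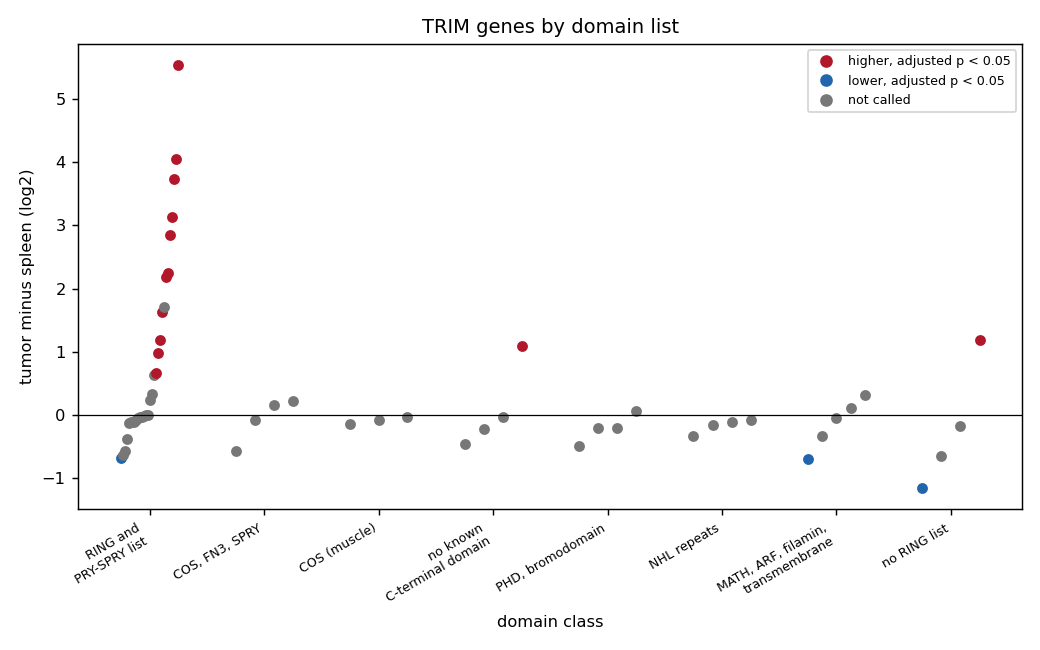
Difference, tumor minus spleen on the log2 scale, of the tested TRIM genes, grouped by domain list and coloured by call; each point is 1 gene, and Trim42 and Trim80, which are on no list, are not shown. The RING and PRY-SPRY list holds 11 of the 13 called rises, of which 7 lie in the chromosome 7 cluster. Trim56 and Trim14 are the points above 1 on the lists without a known C-terminal domain and without a RING.

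The edge of the filter ran through dim members. Trim55, Trim52 and Trim67 were the nearest inside, with their third-brightest array 0.05, 0.20 and 0.34 above the log2 25th percentile of that array. Trim31, Trim69 and Trim38 were the nearest outside, and Trim31 and Trim69 passed on 2 arrays each.

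Several TRIM proteins that carry other symbols rose. Pml, the scaffold of nuclear bodies, went from 7.88 ± 0.25 to 10.54 ± 0.21, a difference of 2.66 ± 0.18 (adjusted p = 4.6e-05). Mid1, a ligase bound to microtubules, rose by 1.84 ± 0.24 (adjusted p = 0.00174; 2.51 with the mean of its probe sets), and Rnf135, the TRIM-like ligase Riplet that activates RIG-I, by 1.74 ± 0.18 (adjusted p = 5.2e-04). Mefv, which encodes pyrin, rose from 5.10 ± 0.44 to 6.10 ± 0.23 (adjusted p = 0.0314), a call lost without spleen 1, tumor 1 or tumor 2 (adjusted p up to 0.104) and in the arrays numbered 1 and 2 alone (adjusted p = 0.0735). Mid2 (-0.46 ± 0.27), Triml1 (0.11 ± 0.14) and Triml2 (0.07 ± 0.17) were not called, which left 4 of 7 higher and 0 lower (limma, also 0 lower before adjustment). Among 28 tested substrates, partners and E2 enzymes of TRIM ligases, 10 were higher and 1 lower (35.7% and 3.57%). Over all tested genes 5.73% were higher and 4.85% lower, so the share of falls was near that of all genes. Both lists were chosen with earlier results of these data known, so their counts are descriptions. The median difference of the partner list was 0.58 beside -0.05 over all tested genes. Irf7, an amplifier of interferon transcription (4.42 ± 0.16, adjusted p = 2.2e-06), Ifih1, the RNA sensor MDA5 (3.37 ± 0.16, adjusted p = 6.3e-06), and Usp18, the protease that removes ISG15 (2.69 ± 0.14, adjusted p = 9.9e-06), were the rises of smallest p. Mavs, the adaptor below the RNA sensors, fell by 0.95 ± 0.17 (adjusted p = 0.01), a call lost without tumor 1 (adjusted p = 0.0564). Ddx58, the RIG-I gene and the substrate of Trim25 and Rnf135, was 2.92 ± 0.15 higher (adjusted p = 1.1e-05). Tab2, a target of Trim30a, was 0.71 ± 0.16 higher (adjusted p = 0.0283), and Tab3 stood at 0.09 ± 0.14 (adjusted p = 0.862). Ddx58, Tab2 and Tab3 were named after their values were seen.

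**Figure D5:**
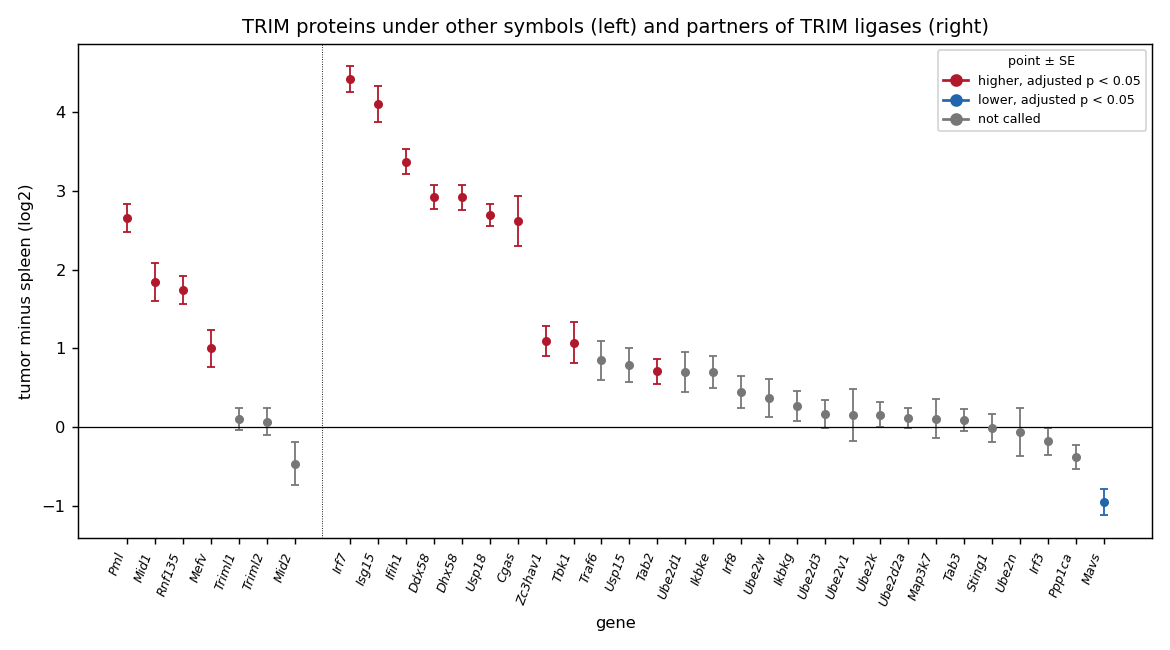
Difference, tumor minus spleen on the log2 scale, with its SE, of TRIM proteins under other symbols (left of the dotted line) and of partners of TRIM ligases (right), coloured by call. Pml, Mid1, Rnf135 and Mefv are higher on the left, and 10 of 28 partners are higher on the right, from Irf7 (4.42) to Tab2 (0.71), with Mavs (-0.95) the 1 called fall.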

How the data were processed

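The authors deposited 1 table of probe set intensity on a linear scale, made with RMA per the submitters' processing notes, with no version or setting given. The genome build of the array design is not stated in the material used. Of 41345 probe sets, 23521 carry 1 gene symbol in the platform annotation, 1814 several and 16010 none, and only the first kind was used. A gene with several probe sets was read from the one with the highest mean. Genes above the 25th percentile of all probe sets of their array on at least 3 arrays were tested. Values were used as log2(intensity + 1), and a fold on that scale understates changes of dim genes. limma 3.58.1 (R 4.3.3; lmFit and eBayes, two-sided) was fitted to all genes with group as the only term, and the code was tested on simulated data. The number of arrays limits the precision. All 64 members matched a RefSeq entry (GRCm38.p6) by gene identifier and symbol.

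Members and gene lists were chosen with earlier results of these data known. Named with values were called members, the 3 brightest members not called and the 3 of smallest p, the genes of the sort and of TRIM proteins under other symbols, and up to 3 called partners per direction. List symbols were updated through RefSeq synonyms (Mb21d1 to Cgas, Tmem173 to Sting1).

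Replicate numbers are from the labels. Deviations from the group means correlated across genes at 0.361, 0.44 and 0.709 between equally numbered arrays. Numbers 1 and 2 also correlated with each other across groups (0.463 for spleen 1 with tumor 2, 0.347 for spleen 2 with tumor 1). These values set number 3 apart and do not show that numbers 1 and 2 pair. The replicate block follows the label numbers and is an alternative fit only. Alternatives were other scalings (quantile, median centring, cyclic loess), no filter or one at the 50th percentile, averaging all probe sets of a gene, a pseudocount of 0 or 16, a trended and robust prior, the replicate block, arrays numbered 1 and 2 alone, an adjusted p under 0.01, and each array left out.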

Additional observations from a re-analysis of the deposited data

How the results depend on the processing

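The count of members called higher, 13, stayed within 1.5 times under the alternatives run: it was 14 with each of the 3 scalings, 16 with the replicate block, 10 at an adjusted p under 0.01, and from 10 to 13 with an array left out. The count of members called lower, 3, moved more. It was 8 after quantile normalization, 6 after median centring, 5 after cyclic loess, 5 with a pseudocount of 16, 12 with the replicate block, 6 in the arrays numbered 1 and 2, 1 with the mean of probe sets, 0 at an adjusted p under 0.01 (limma gave 8 lower at p under 0.05 before adjustment), and from 0 to 6 with an array left out. Among all tested genes, 4.85% were called lower in the main fit. That share was 10.4% after quantile normalization, 9.78% after median centring, 7.21% after cyclic loess and 17.3% with the replicate block. The share called higher was 5.73% in the main fit, and 8.59%, 8.03%, 10% and 11.7% in the same order. The cause of these shifts was not tested.

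Of the 16 called members, 10 kept their direction and call under all alternatives that could be run for them (Trim30c, Trim30b, Trim30d, Trim21, Trim30a, Trim34a, Trim12a, Trim26, Trim25 and Trim56). Trim37 also lost its call without the filter, without a pseudocount, with the mean of probe sets and with the trended prior (adjusted p up to 0.059). Among the genes of the sort, the TRIM proteins under other symbols and the partners named, the replicate block changed the call of Adgre1 (adjusted p = 0.00257, against 0.121); it called 0 of the 10 genes flanking the chromosome 7 cluster and 1 of the 9 on chromosome 17 (Ppp1r11, named after its value was seen). Scaling moved the median difference of all tested genes from -0.05 to at most -0.06 or -0.01. Sign changes were seen for Cx3cr1, to 0.03 with cyclic loess, 0.15 without spleen 3 and 0.11 without tumor 2 (from -0.27 to 0.15 with an array left out), and for Triml2, to -0.08 without tumor 2 (from -0.08 to 0.18); neither was called. Low signal limits Trim30b, Trim30c, Trim12c, the Trim43 genes and the other dim members not called.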

Other observations

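Some probe sets are listed with more than 1 gene and therefore name none. Of those that list a TRIM gene, 3 list genes of the chromosome 7 cluster. Probe set 17481284 had 4.92, 5.37 and 5.69 in spleen and 7.50, 7.38 and 8.18 in tumor, a difference of 2.36. Probe set 17494325 had 5.92, 5.82 and 6.20 in spleen and 6.58, 7.08 and 7.74 in tumor, a difference of 1.15. On both, every tumor array lay above every spleen array. Probe set 17481305 was dim, with a difference of 0.54. Probe set 17272174, which lists 2 TRIM genes outside the cluster, had 7.37, 7.43 and 7.37 in spleen and 6.63, 6.41 and 6.35 in tumor, a difference of -0.93. These values were not tested.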
